A study of Mus musculus with 12 samples.

Results

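Whole kidneys of Pod-TRECK mice, collected 14 days after diphtheria toxin, were compared with kidneys of Pod-TRECK mice that received no treatment. Pod-TRECK mice carry a transgene that places a diphtheria toxin receptor on podocytes, so the toxin is directed at that cell type and every animal compared here, control or treated, carries the transgene. The day-14 group was given 100 ng of toxin into the peritoneal cavity, and each group held 3 mice. Whole-kidney RNA was selected by its poly(A) tail and sequenced, which made 6 libraries out of the 12 of the series; the mice of the other days were not used in the comparison. The members were all genes of the deposited count table, 56722 in number, of which 19320 had enough counts in these 6 libraries to be tested. The promoter that drives the receptor, and the age and sex of the mice, were not given in the sources used here. By their transcripts the mice were male: 4 single-copy genes of chromosome Y took 0.0125 to 0.0166% of counts in every library.

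Podocytes wrap the capillaries of the glomerulus and hold the slit diaphragm, the last barrier that keeps plasma proteins out of the urine. Podocytes of adult kidneys are poorly replaced, and their loss is known to be followed by protein leak, glomerular scarring and damage along the tubule. The proximal tubule, which makes up most of the kidney cortex, takes up filtered protein, glucose, phosphate and organic acids and lives on the oxidation of fatty acids. In whole-kidney RNA a lower value can come from fewer cells of a type or from less RNA per cell, and these cannot be told apart.

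The control libraries held 40426124 to 42654903 counts and the day-14 libraries 31023852 to 39493106. Replicates were alike (Spearman correlations of at least 0.993 among controls and 0.990 at day 14), and the groups lay at opposite ends of a principal component with 88.6% of the variance. The 10 most abundant genes took 24.0 ± 0.714% (SD, n = 3) of counts in controls and 11.7 ± 0.110% at day 14, and the mitochondrial genome alone took 22.9 ± 0.684% and 9.22 ± 0.238%. Levels below are CPM, counts relative to the library size, scaled by TMM, a method that assumes most genes do not change, and fold changes are log2 values with the standard error of the fit (n = 3 per group). Scaling by library totals alone would raise the median of all genes by 0.76 on the log2 scale, so falls smaller than that change sign under it and every direction is relative to the TMM scale. The mice of a group are biological replicates per the series design, and all libraries carry 1 batch label.

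Of the genes tested, 6779 were higher at day 14 (35.1%) and 6560 were lower (34%), so that 69% were called at an adjusted p under 0.05. The groups did not overlap for 73.7% of the genes tested, with all day-14 libraries above the controls in 37.6% and below them in 36.1%. The changes were broad: over all genes tested, called or not, the median absolute log2 fold change was 0.60. Of the 13339 called genes, 3516 were at least 2-fold higher and 2703 at least 2-fold lower. Genes past 8-fold numbered 674 higher and 433 lower. Abundant genes fell more often than rare ones. Of the 4830 genes with the highest mean level 2635 fell and 1258 rose, and of the 4830 with the lowest 940 fell and 1849 rose. Because 69% of all genes were called, the count of called members in a group is read below against that background, with the median of all genes at 0.04.

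**Figure D1:**
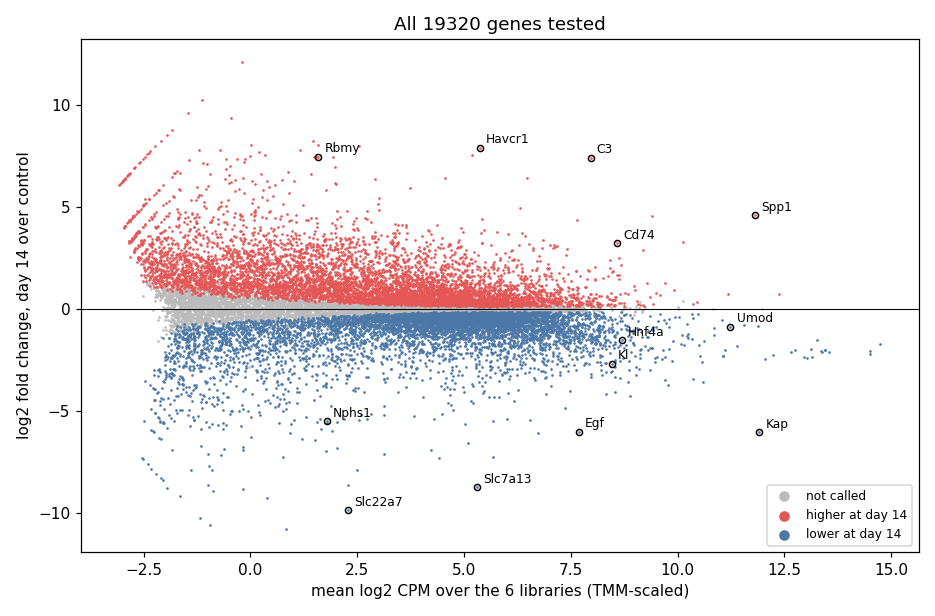
Each point is 1 of the 19320 genes tested, with its mean log2 CPM over the 6 libraries on the x axis and its log2 fold change, day 14 over control, on the y axis; red and blue points were called higher and lower, and named genes are circled. Calls were made in both directions at every level, with Kap and Egf far below 0 and Havcr1, C3 and Spp1 far above it.

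The cells targeted by the toxin came first. The slit diaphragm transcripts Nphs1 and Ddn were almost lost at day 14, while several genes named after podocytes but also made elsewhere in the kidney were not lower. Nphs1 (nephrin, the adhesion protein that spans the slit; GRCm39 chromosome 7, 30157740 to 30186648) stood at 22.8, 20.7 and 25.4 CPM in control replicates 1 to 3 and at 0.607, 0.618 and 0.271 CPM in day-14 replicates 1 to 3. The groups were far apart, and day-14 replicate 3 was the lowest library. Nphs1 fell by 5.50 ± 0.21 (adjusted p = 1.29e-07). Ddn (dendrin, a nephrin-binding protein of the slit) fell by 6.92 ± 0.38, from 7.68 to 0.0591 CPM, and Lmx1b (a LIM homeodomain factor needed to keep podocytes differentiated) fell by 3.05 ± 0.28.

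Other podocyte genes fell less or not at all. Ptpro, a receptor tyrosine phosphatase of the foot process, fell by 1.45 ± 0.08, Cdkn1c, the cell-cycle inhibitor p57 of resting podocytes, fell by 1.93 ± 0.11, and Vegfa, the growth factor that podocytes and tubules supply to endothelium, fell by 1.61 ± 0.06. Tcf21, a factor of podocytes and of stromal cells, rose by 1.03 ± 0.12, and Cd2ap, an adaptor at the slit that many epithelia express, rose by 1.02 ± 0.05. Of 20 slit diaphragm and foot process genes tested, 10 fell, 8 rose and 2 were not called, which turned to 5 falls and 12 rises with library totals alone. Without control replicate 1 only 5 of them rose.

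**Figure D2:**
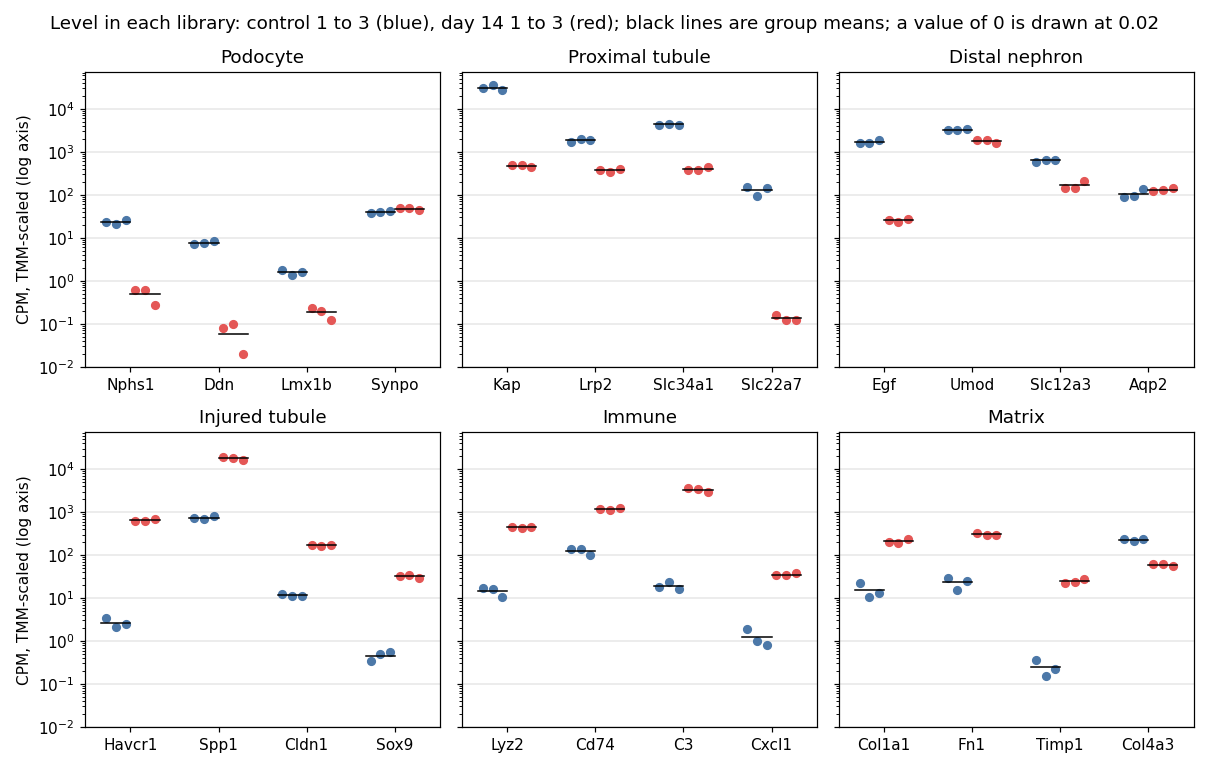
Points are the TMM-scaled CPM (log axis) of 24 genes in 6 panels by cell type or role, with the 3 control libraries in blue, the 3 day-14 libraries in red and group means as black lines. The groups do not overlap for Nphs1, Kap, Egf, Havcr1 or C3, whereas the Aqp2 groups overlap, and a value of 0 (Ddn in day-14 replicate 3) is drawn at 0.02.

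The collagen network of the glomerular basement membrane moved in opposite directions by chain. The mature network is built of the alpha3, alpha4 and alpha5 chains of type IV collagen, and the alpha1 and alpha2 chains are found in mesangial matrix and in tubular membranes. Col4a3 stood at 236, 210.1 and 233 CPM in controls and 61.2, 60.4 and 55.3 CPM at day 14, a fall of 1.94 ± 0.07, and Col4a4 fell by 1.41 ± 0.06. Col4a1 stood at 178, 181 and 157 CPM and then 734, 681 and 661 CPM, a rise of 2.01 ± 0.07, and Col4a2 rose by 1.85 ± 0.07. Col4a5 was at 0.04 ± 0.07 and was not called. Agrn (agrin, a heparan sulfate proteoglycan of the membrane) rose by 2.04 ± 0.05 and Lama5 (laminin alpha5) rose by 1.43 ± 0.11. Of 12 membrane genes 8 rose and 2 fell (median 0.88).

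Glomerular endothelial and mesangial genes also differed. Esm1, which is made by endothelium under VEGF, fell by 2.71 ± 0.11, and Kdr, the main VEGF receptor, fell by 1.17 ± 0.10; Vegfa itself fell, as given above. Plat (tissue plasminogen activator) rose by 2.00 ± 0.11 and Vwf (von Willebrand factor) rose by 1.29 ± 0.27. Of 17 endothelial genes 11 fell and 5 rose, against 2 and 12 with library totals alone. Contractile and mural genes rose: Acta2 (smooth muscle actin, also a myofibroblast marker) rose by 2.19 ± 0.16, Tagln rose by 1.99 ± 0.12 and Pdgfrb, the receptor of pericytes and mesangium, rose by 1.50 ± 0.08. Of 14 mesangial, pericyte and renin cell genes 10 rose and 2 fell, Ren1 and Akr1b7 (median 1.16).

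The proximal tubule lists had the lowest medians of the nephron. All 10 genes of the early segment S1 fell (median -2.18), as did all 12 genes of segments S2 and S3 (median -3.52), where 34% of all genes fell. As a share of the library, the S1 list took 0.805, 0.834 and 0.857% of counts in controls and 0.265, 0.257 and 0.270% at day 14. The S2 and S3 list took 0.946, 1.00 and 0.932% of counts in controls and 0.186, 0.185 and 0.173% at day 14. The 3 day-14 libraries lay close to each other on both measures.

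Of nuclear genes, Kap lost the largest share of the library. Kap (kidney androgen-regulated protein, a product of the straight proximal tubule; GRCm39 chromosome 6, 133826814 to 133830725) had 1011668, 1137152 and 864456 counts in the controls and 25531, 19610 and 18297 counts at day 14. It thus went from 2.40% of all counts to 0.062%, and fell by 6.03 ± 0.12 (adjusted p = 8.28e-09). Other genes of the straight segment also fell far. Slc22a7 (OAT2, an organic anion transporter) had 5065, 2955 and 4493 counts in controls and 8, 5 and 5 at day 14, the deepest fall among called genes that met the abundance rule. Slco1a1 (an organic anion polypeptide transporter) fell by 6.57 ± 0.16, Slc22a19 fell by 7.10 ± 0.27, Cyp7b1 (an oxysterol and steroid hydroxylase) fell by 4.93 ± 0.15 and Mep1b (meprin beta, a brush border protease) fell by 6.92 ± 0.12.

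Uptake of filtered protein, glucose and phosphate was lower at the transcript level. Lrp2 (megalin, the endocytic receptor for filtered protein) stood at 1736, 2035 and 1881 CPM in controls and 384, 347 and 391 CPM at day 14, and fell by 2.33 ± 0.08. Its partner Cubn (cubilin) fell by 1.95 ± 0.07. Slc5a2 (SGLT2, the main glucose reabsorber) fell by 2.79 ± 0.10, and Slc6a19, a neutral amino acid transporter, fell by 2.92 ± 0.16. The groups did not overlap for any of these genes. Of 19 organic ion transporters 16 fell (median -2.58), among them Slc22a6 (OAT1) at -3.33 ± 0.07, Slc22a12 (URAT1, the urate exchanger) at -3.31 ± 0.09 and Slc22a2 (OCT2) at -3.07 ± 0.05. Abcc4 (the efflux pump MRP4) was the 1 called member that went the other way and rose by 0.99 ± 0.11. Across the table, 195 of 325 tested solute carriers fell and 78 rose (median -0.61, which is 0.15 with library totals alone).

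Amino acid carriers split by the kind of transporter. Carriers of the tubular brush border and basolateral side fell, such as Slc6a20b at -3.06 ± 0.07, Slc1a1 at -2.08 ± 0.07 and Slc7a9 (the light chain of the cystine carrier) at -1.21 ± 0.05. Carriers known from growing or activated cells rose: Slc7a11 (cystine uptake) rose by 2.36 ± 0.32, Slc7a5 (LAT1) rose by 1.81 ± 0.19 and Slc7a1 (cationic amino acids) rose by 1.48 ± 0.09. In counts, 9 of 17 fell and 6 rose, and with library totals alone 6 fell and 9 rose.

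**Figure D3:**
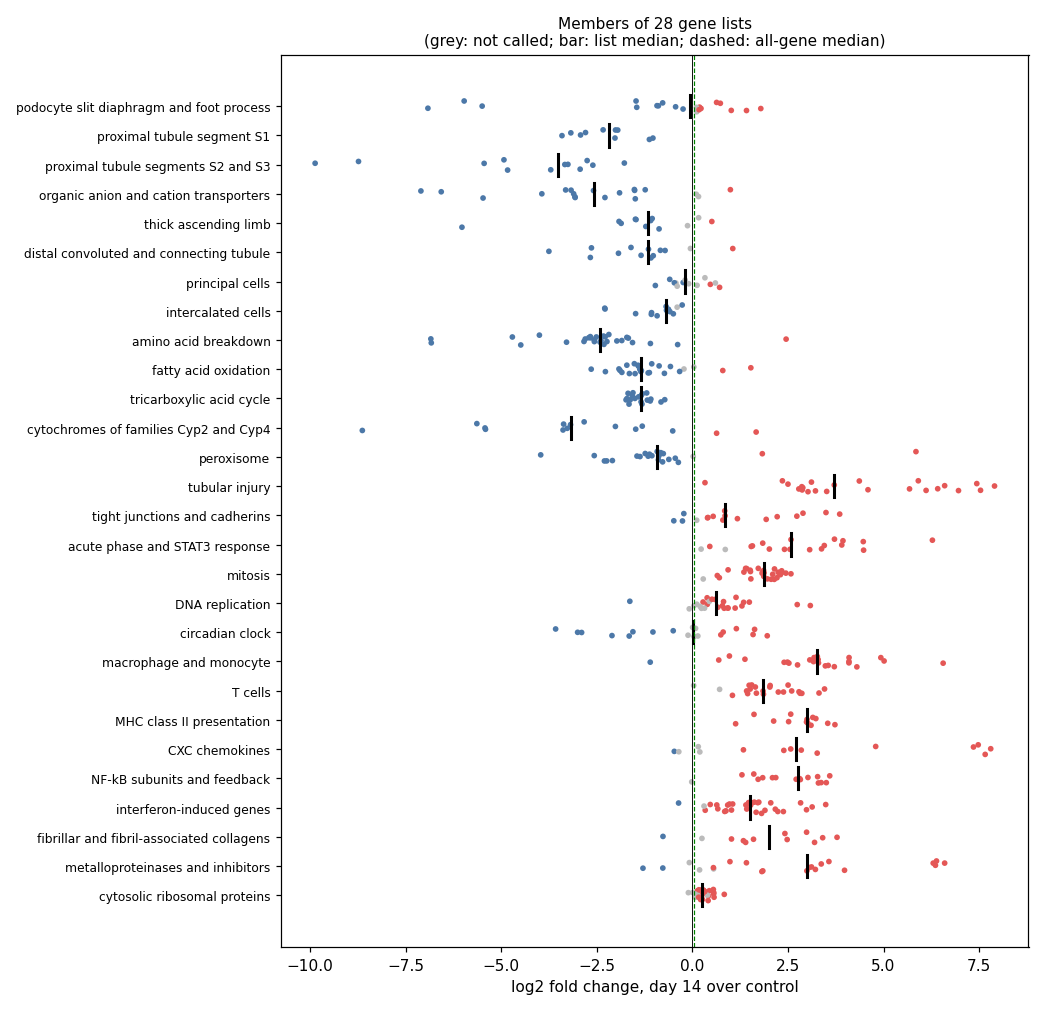
Each point is the log2 fold change, day 14 over control, of 1 member of a gene list (28 lists on the y axis), coloured red or blue where called and grey where not; black bars are list medians and the dashed line is the median of all genes, 0.04. All proximal tubule and tricarboxylic acid cycle members lie below 0, all tubular injury and MHC class II members lie above 0, and the clock, podocyte and principal cell lists lie on both sides.

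Phosphate, Klotho and vitamin D genes changed in a patterned way. Kl (Klotho, the co-receptor through which FGF23 lowers phosphate uptake; GRCm39 chromosome 5, 150876072 to 150917282) stood at 824, 972 and 873 CPM in controls and 129, 129 and 162 CPM at day 14, and fell by 2.67 ± 0.11 (adjusted p = 1.76e-07). The phosphate carriers Slc34a1 (NaPi-IIa) and Slc34a3 (NaPi-IIc) were at -3.41 ± 0.08 and -5.13 ± 0.23. Cyp27b1 (the 1alpha-hydroxylase that makes active vitamin D; named by its position on the steroid) went up instead, from 2.91, 4.94 and 2.86 CPM to 37.9, 38.7 and 27.0 CPM, a rise of 3.27 ± 0.23. Vdr, the vitamin D receptor, fell by 0.90 ± 0.06 and Pth1r, the parathyroid hormone receptor, fell by 1.71 ± 0.06.

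Along the loop and distal nephron the falls were smaller, with Egf as the exception. Egf (the epidermal growth factor precursor of the thick ascending limb and distal convoluted tubule; GRCm39 chromosome 3, 129471214 to 129548965) stood at 1589, 1566 and 1854 CPM in controls and 26.1, 23 and 27.8 CPM at day 14. It fell by 6.03 ± 0.11 (adjusted p = 7.74e-09). Umod (uromodulin, the main secreted protein of the same limb) stood at 3205, 3214 and 3394 CPM and then 1882, 1901 and 1585 CPM and fell by 0.87 ± 0.08, a fall that was not called with library totals alone, at -0.11, so the 2 markers of that segment differed widely. Of 12 thick limb genes 9 fell and 1 rose (median -1.15).

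In the distal convoluted and connecting tubule 11 of 13 genes fell (median -1.15). Slc12a3 (the thiazide-sensitive salt carrier) fell by 1.93 ± 0.16, Calb1 (calbindin-D28k) fell by 1.60 ± 0.11 and S100g (calbindin-D9k) fell by 2.64 ± 0.11. Trpv5, the apical calcium channel of the same cells, went from 22.1, 25.2 and 25.9 CPM to 45.3, 43.2 and 63.8 CPM and rose by 1.06 ± 0.15. Pvalb (parvalbumin) had 523, 571 and 616 counts in controls and 86, 90 and 0 counts at day 14; its 0 was in day-14 replicate 3, and parvalbumin is also a muscle protein, whose other markers were higher in day-14 replicates 1 and 2 (below).

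In the collecting duct, fewer of the principal cell genes were called than of any other nephron list. Of 13 principal cell genes 7 were not called, 4 fell and 2 rose, and with library totals alone 8 rose and 0 fell. Aqp2 (the vasopressin-regulated water channel) had 87.2, 93.9 and 133 CPM in controls and 121, 131 and 143 CPM at day 14, a difference of 0.33 ± 0.15 that was not called but was called without control replicate 3, at 0.52. Intercalated cells showed 12 falls among 13 genes, against 3 falls and 2 rises with library totals alone. Slc26a4 (pendrin, the bicarbonate exchanger of type B cells) fell by 2.28 ± 0.09 and Slc4a1 (the exchanger AE1 of type A cells, also of red cells, whose markers fell) fell by 2.29 ± 0.09.

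Metabolic genes of the tubule fell together. All 19 tricarboxylic acid cycle genes fell within a narrow range (median -1.34), and 21 of 25 genes of fatty acid oxidation fell (median -1.35). Acadm (medium-chain acyl-CoA dehydrogenase) fell by 2.65 ± 0.08 and Hadh fell by 1.92 ± 0.05. Ppara, the nuclear receptor that drives this pathway, fell by 1.37 ± 0.10. Cyp4a14 (an omega-hydroxylase and textbook target of Ppara) went the other way. It stood at 71.1, 40.9 and 41.3 CPM in controls and 157, 165 and 120.5 CPM at day 14 and rose by 1.53 ± 0.22.

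Amino acid breakdown fell further than fatty acid oxidation by its median: 28 of 29 genes fell (median -2.41). Hpd (4-hydroxyphenylpyruvate dioxygenase, of tyrosine breakdown) stood at 42.8, 38.1 and 41.1 CPM in controls and 0.391, 0.371 and 0.295 CPM at day 14 and fell by 6.83 ± 0.11. Dmgdh (dimethylglycine dehydrogenase) fell by 4.71 ± 0.08, Aadat (kynurenine and aminoadipate transaminase) fell by 4.49 ± 0.07 and Cbs (cystathionine beta-synthase) fell by 4.0 ± 0.07. Arg2 (mitochondrial arginase) was the exception, at 3.43, 3.66 and 4.32 CPM and then 22.4, 22.7 and 17.3 CPM, and rose by 2.45 ± 0.14. The route from tryptophan to NAD, in which Aadat also acts, was lower, with Haao at -4.09 ± 0.05, Acmsd at -2.94 ± 0.13 and Kmo at -2.83 ± 0.08, whereas Nnmt, which methylates nicotinamide, rose by 2.22 ± 0.38.

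A few lower genes held a short site near their start that HNF4A is known to bind. HNF4A is a nuclear receptor that maintains the proximal tubule state, and its transcript Hnf4a stood at 645, 775 and 696 CPM in controls and 238, 235 and 257 CPM at day 14, a fall of 1.54 ± 0.08. The letters CAAAGTCCA, searched on both strands of the 300-base RefSeq promoter windows of GRCm38.p6 (mostly upstream of the start), were found at 0.555% of 12431 tested genes with a window. Among genes called at least 8-fold lower, 6 of 230 held them (2.61%), and among genes called at least 8-fold higher, 7 of 426 did (1.64%), so matches were not limited to falls. In the amino acid breakdown list 2 of 25 genes with a window held them, Aadat and Agxt2. Shown are 110-base stretches from 3 lower genes of the lists, with the site in capitals. They are Slc3a1 (rBAT, the heavy chain of the cystine carrier; it fell by 1.78 ± 0.09) at chr17:85028267-85028376 on the plus strand, Aadat at chr8:60506014-60506123 on the plus strand, with the site on the opposite strand, and Agxt2 (a mitochondrial aminotransferase; it fell by 3.29 ± 0.06) at chr15:10358453-10358562 on the plus strand.
Slc3a1: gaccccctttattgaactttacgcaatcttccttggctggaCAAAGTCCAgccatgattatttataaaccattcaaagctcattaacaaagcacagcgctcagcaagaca
Aadat: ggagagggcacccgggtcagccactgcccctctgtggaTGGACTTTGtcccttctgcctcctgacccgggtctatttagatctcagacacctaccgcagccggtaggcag
Agxt2: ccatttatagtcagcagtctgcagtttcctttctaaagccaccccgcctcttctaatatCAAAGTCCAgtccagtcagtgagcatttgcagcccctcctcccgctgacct
These are matches of letters only, and binding was not measured.

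Detoxication and antioxidant genes followed the tubule. Cytochromes P450 of families 2 and 4 had 13 falls among 15 (median -3.18), with Cyp2d9, a steroid hydroxylase, at -5.64 ± 0.18. All 17 glucuronosyltransferases tested fell (median -1.33). Many members of both families are close copies, so reads could be split among them and single values are uncertain. Cat (catalase) fell by 2.10 ± 0.07, Gpx3 (plasma glutathione peroxidase, made by the proximal tubule) fell by 1.94 ± 0.06 and Sod2 (the mitochondrial superoxide dismutase) fell by 1.81 ± 0.05. Nfe2l2 (NRF2) itself rose by 0.58 ± 0.05, but 17 of 24 NRF2 targets and antioxidant enzymes fell, Nqo1 at -1.26 ± 0.06 and Gclc at -1.73 ± 0.13 among them (median -0.87). In this list 5 genes rose, Nfe2l2 and Slc7a11 among them. With library totals alone 12 fell and 9 rose (median -0.11).

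Organelles differed. Of 23 peroxisomal genes 20 fell (median -0.92), and of 83 mitochondrial ribosomal proteins 76 fell (median -0.76, which is 0.00 with library totals alone). Of 35 cytosolic ribosomal proteins 26 rose slightly and none was called lower, or 1 without control replicate 1 (median 0.24). Their summed share of the library went from 0.666 ± 0.0156% to 1.34 ± 0.0188% (SD, n = 3). That share is of raw counts and is not TMM-scaled, so it is not the size of the rise given by the median. The proteasome share also went up, from 0.208 to 0.250%, while 21 of its 25 genes were called lower on the TMM scale. Amacr (a racemase of branched fatty acids) fell by 3.97 ± 0.08, the deepest fall in the peroxisome list. Uox (urate oxidase, a liver enzyme) had 1, 0 and 0 counts in controls and 43, 29 and 32 at day 14, 128-fold higher (exact 95% counting interval 22.5 to 5106).

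**Figure D4:**
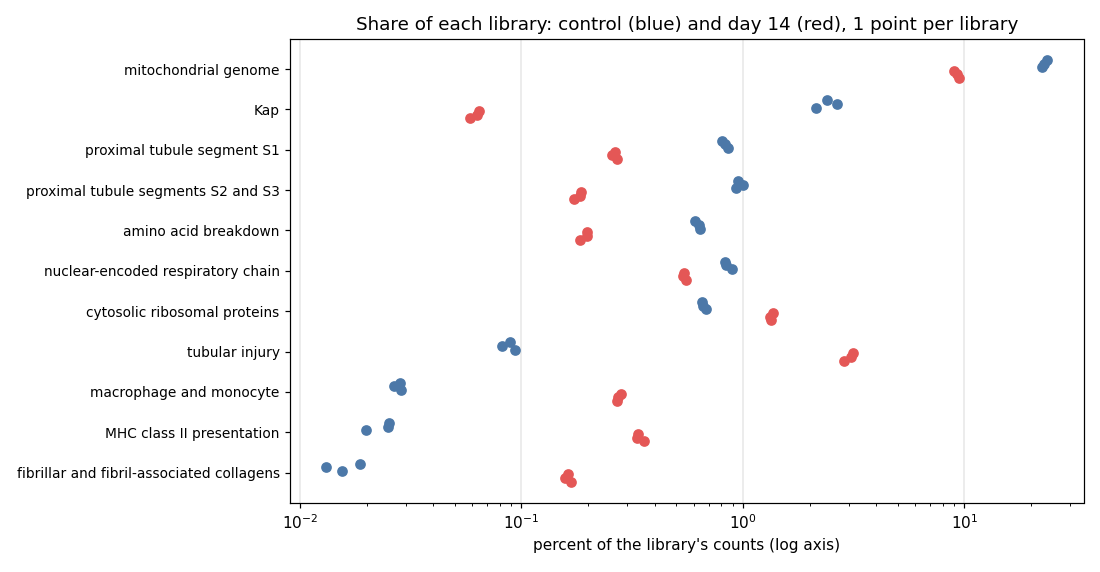
The x axis (log) gives the percent of a library's counts taken by the mitochondrial genome, by Kap and by 9 gene lists, with 1 point per library (control in blue, day 14 in red). The mitochondrial genome, Kap and the tubule and metabolic lists lie to the left at day 14, and the injury, immune, collagen and ribosomal protein lists lie to the right, with no overlap of groups.

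Injury genes of the tubule rose. All 23 members rose (median 3.71), where 35.1% of all genes rose; the groups did not overlap for 22 of them, and together they went from 0.0878 ± 0.00592% to 3.03 ± 0.140% of all counts (SD, n = 3). Most of that was Spp1 (osteopontin, a secreted phosphoprotein that recruits macrophages; GRCm39 chromosome 5, 104582984 to 104588916), at 24254, 21660 and 24855 counts in controls and 951509, 736811 and 666915 at day 14. Spp1 rose by 4.59 ± 0.09 and took 0.057% and then 2.31% of counts. Sox9 (a progenitor factor that reappears in regenerating tubule) went from 0.337, 0.497 and 0.540 CPM to 33.4, 33.6 and 28.5 CPM and rose by 6.11 ± 0.15. Cd44 (the hyaluronan receptor) rose by 5.91 ± 0.13, Clu (clusterin) rose by 2.87 ± 0.07, and Cp (ceruloplasmin) rose by 4.37 ± 0.08.

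Several claudins and keratins that a healthy proximal tubule has little of were higher in whole-kidney RNA. Cldn1 stood at 12.7, 10.9 and 11.3 CPM in controls and 167, 162 and 175 CPM at day 14, a rise of 3.85 ± 0.07. Cldn4 rose by 2.89 ± 0.11, Cldn3 rose by 2.73 ± 0.11 and Cldn7 rose by 2.22 ± 0.09, all barrier-forming claudins of distal or other epithelia. Cdh6 (K-cadherin, of the developing proximal tubule) rose by 3.49 ± 0.09. Krt19 rose by 3.73 ± 0.35, Krt18 rose by 2.50 ± 0.14 and Krt8 rose by 1.49 ± 0.06, keratins of simple epithelia, and all 9 keratins tested in the list rose (8 when day-14 replicate 1 or 2, or control replicate 1 or 3, was left out). Some keratins of this list are also made by urothelium, whose markers were higher in day-14 replicates 1 and 2 (below).

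Transcription factors of the nephron went both ways. Pax2 and Pax8, which are needed to form the nephron, rose by 0.57 ± 0.10 and 0.72 ± 0.05. Foxj1, the master factor of motile cilia, went from 0.337, 0.155 and 0.318 CPM to 3.88, 3.76 and 5.68 CPM and rose by 4.02 ± 0.30. Emx1 fell by 1.80 ± 0.10, Lhx1 fell by 1.74 ± 0.13 and Nr1h4 (FXR, the bile acid receptor) fell by 1.43 ± 0.10. In counts 8 of 20 rose and 10 fell, and with library totals alone 11 rose and 5 fell.

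Acute phase genes rose, and clotting genes went both ways. Serpina3n (an inhibitor of serine proteases) went from 0.245, 0.342 and 0.0636 CPM to 17.7, 18.7 and 15.1 CPM and rose by 6.28 ± 0.28. Socs3, the feedback inhibitor of STAT3, rose by 4.47 ± 0.15, Osmr (the oncostatin M receptor) rose by 3.38 ± 0.09 and Stat3 rose by 1.54 ± 0.06. The fibrinogen chains Fga, Fgb and Fgg rose by 2.55 ± 0.09, 3.94 ± 0.17 and 3.07 ± 0.08. Of 19 acute phase genes 17 rose and none fell (median 2.58). Hp (haptoglobin) had 94, 231 and 35 counts in controls and 3621, 2728 and 354 at day 14, so most of its rise was in day-14 replicates 1 and 2, where fat markers were also high. Its rise was called by edgeR (adjusted p = 0.00425) but not by limma-voom, nor in a fit of all 12 libraries. Of 17 genes of clotting and fibrinolysis 11 rose and 5 fell. F13a1 (clotting factor XIII, of macrophages) rose by 3.85 ± 0.26, while Proc (protein C, an anticoagulant) fell by 2.78 ± 0.08, Proz (protein Z) fell by 4.61 ± 0.26 and F5 (factor V) fell by 1.87 ± 0.13.

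Cell division genes were raised, the mitotic ones more than those of DNA replication. Of 28 mitotic genes 27 rose (median 1.87), and of 26 replication genes 18 rose (median 0.63); the difference between the lists was not tested. Top2a stood at 3.92, 3.82 and 1.84 CPM in controls and 16.6, 15.8 and 16.4 CPM at day 14, and rose by 2.34 ± 0.23. Mki67 (Ki-67) rose by 2.24 ± 0.21 and Anln (anillin, of the cleavage furrow) rose by 2.58 ± 0.20. Uhrf1 (which keeps DNA methylation through replication) rose by 3.09 ± 0.28, whereas Mcm6 was at 0.12 ± 0.07 and Mcm10 fell by 1.63 ± 0.16.

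Most genes of the list of p53 targets and senescence rose, but not all p53 targets did. Cdkn1a (p21) rose by 3.51 ± 0.13, Bbc3 (the pro-apoptotic protein PUMA) rose by 2.97 ± 0.19, Pmaip1 (NOXA) rose by 2.65 ± 0.10 and Eda2r rose by 3.04 ± 0.27. Cdkn2a, which encodes p16 and ARF, had 0, 1 and 0 counts in controls and 23, 21 and 18 at day 14, 76.3-fold higher (exact 95% counting interval 13.2 to 3064). Of 19 genes in this list 15 rose and 3 fell (median 0.89). The p53 target Ccng1 (cyclin G1) fell by 0.75 ± 0.07, which is close to 0 with library totals alone. Mdm2 (the ligase that degrades p53) was at -0.14 ± 0.05, called lower but not without day-14 replicate 2 (at -0.14) or 3 (at -0.13), and higher with library totals alone. Glb1, the lysosomal beta-galactosidase used as a stain of senescent cells, fell by 1.07 ± 0.05.

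Immediate early genes rose, but not all of them. Klf6 rose by 3.20 ± 0.05, Fosl2 rose by 2.56 ± 0.06, Junb rose by 2.19 ± 0.07 and Fosl1 (from 0.0415 to 1.98 CPM) rose by 5.47 ± 0.42. Fos was at 0.36 ± 0.18 and was not called. The AP-1 letters TGANTCA, bound by Fos and Jun proteins, were searched on either strand. They occurred in 68 of 426 genes with a promoter window called at least 8-fold higher (16%). They also occurred in 24 of 230 such genes called at least 8-fold lower (10.4%), and in 6.84% of all genes tested that had a window.

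The stress responses were uneven. Of 26 genes of the unfolded protein and integrated stress responses 11 rose, 6 fell and 9 were not called; 17 rose without control replicate 2, and 24 with library totals alone. Among known targets of ATF4, Trib3 rose by 2.21 ± 0.27, Asns (asparagine synthetase) rose by 2.00 ± 0.15 and Chac1 rose by 1.66 ± 0.32, whereas Shmt2 (mitochondrial serine metabolism) fell by 2.56 ± 0.06 and Psat1 (serine synthesis) fell by 0.38 ± 0.06, the latter a fall that library totals alone reverse. Hspa5 (BiP, the main chaperone of the endoplasmic reticulum) was at 0.33 ± 0.25 and was not called, with 334, 745 and 446 CPM in controls and 607, 587 and 718 CPM at day 14; without control replicate 2, its highest library, it was called at 0.69. Herpud1 fell by 1.31 ± 0.09.

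Genes of the circadian oscillator moved in both directions. Of 19 clock genes 8 fell, 6 rose and 5 were not called (median 0.007), and with library totals alone 7 fell and 11 rose. Nr1d1 (REV-ERBalpha, the repressor of the clock) stood at 62.2, 46.6 and 48.8 CPM in controls and 6.95, 6.43 and 6.30 CPM at day 14 and fell by 3.00 ± 0.12. Dbp, a clock output factor, stood at 115, 73.1 and 134 CPM and then 15.4, 14.5 and 13.3 CPM and fell by 2.90 ± 0.21; Ciart fell by 3.58 ± 0.31. Arntl (BMAL1) was higher, with 1.32, 4.26 and 1.14 CPM and then 7.01, 6.67 and 7.11 CPM, a rise of 1.63 ± 0.42. Cry1 rose by 1.96 ± 0.27. The hour of collection is not given in the sources used here, so clock phase and treatment cannot be told apart for these genes.

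Leukocyte transcripts rose, with macrophage genes at the front. Of 26 macrophage and monocyte genes 25 rose (median 3.25). Lyz2 (lysozyme) stood at 16.9, 15.9 and 10.6 CPM in controls and 452, 429.9 and 443 CPM at day 14 and rose by 4.93 ± 0.16. Trem2 (a lipid receptor of tissue macrophages) went from 0.0920, 0.0621 and 0 CPM to 4.87, 5.09 and 5.63 CPM and rose by 6.56 ± 0.38, and Gpnmb rose by 5.01 ± 0.27. Mrc1 (CD206) rose by 3.55 ± 0.12, Cx3cr1 rose by 3.71 ± 0.16 and Csf1r, the receptor of macrophage growth factor, rose by 0.69 ± 0.08. Mertk, an efferocytosis receptor, fell by 1.10 ± 0.09. The list took 0.0283, 0.0267 and 0.0285% of counts in controls and 0.281, 0.273 and 0.271% at day 14.

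Other leukocytes were present at lower levels. Dendritic cell genes rose in 15 of 16 cases (median 1.90), with Itgax (CD11c) higher by 3.18 ± 0.18 and Cd209a by 3.08 ± 0.17. T cell genes rose in 21 of 23 (median 1.86): Cd3g rose by 2.50 ± 0.28, Cd4 rose by 2.38 ± 0.28, and Foxp3, of regulatory T cells, rose by 2.79 ± 0.61, though it reached only 0.352, 0.568 and 0.664 CPM. Cd8a was at 0.71 ± 0.29 and was not called, though it was called without control replicate 2, at 1.08. Of 15 neutrophil genes only 6 had enough counts to test and 5 of them rose, S100a8 by 3.84 ± 0.34; Ly6g, Ngp and Camp, which define the type, had too few counts to test. Of 20 B and plasma cell genes 10 were tested and 6 rose, Ighm by 1.89 ± 0.24. Ms4a1, which defines B cells, had too few counts to test.

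Antigen presentation by MHC class II rose in all 13 genes (median 3.00). Cd74 (the invariant chain) stood at 136, 139 and 101 CPM in controls and 1174, 1130.5 and 1224 CPM at day 14, and rose by 3.23 ± 0.13. H2-Aa rose by 3.15 ± 0.11, H2-Ab1 rose by 3.02 ± 0.11, and Ciita, their transactivator, rose by 3.10 ± 0.11. The list grew from 0.0234 ± 0.00303% to 0.342 ± 0.0123% of counts (SD, n = 3). Of 16 class I presentation genes 13 rose and 3 fell (median 1.43), and with library totals alone none fell. H2-K1 rose by 1.85 ± 0.06 and B2m rose by 1.79 ± 0.09; the difference between the classes was not tested.

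The subunits of the immunoproteasome and their constitutive partners went opposite ways on the TMM scale. Psmb8, Psmb9 and Psmb10, which replace the catalytic subunits under interferon, rose by 2.26 ± 0.13, 1.24 ± 0.12 and 1.81 ± 0.08. Their constitutive partners Psmb5, Psmb6 and Psmb7 fell by 0.45 ± 0.08, 0.44 ± 0.04 and 0.72 ± 0.06, falls that library totals alone turn into rises. Of 25 proteasome genes 21 fell and none rose, and with library totals alone 23 rose and 1 fell.

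Chemokines that draw neutrophils and monocytes were among the highest rises. Cxcl1 (a neutrophil attractant; GRCm39 chromosome 5, 91039100 to 91040974) stood at 1.93, 1.02 and 0.826 CPM in controls and 33.8, 33.9 and 37.9 CPM at day 14, and rose by 4.79 ± 0.22. Cxcl2 had 1, 3 and 1 counts and then 496, 357 and 445 counts and rose by 7.48 ± 0.27. Cxcl3 was at 0 in all controls and at 32, 24 and 31 counts at day 14, at least 35.7-fold higher (3 counts over the controls as the floor, relative to library totals). Cxcl5 had 2, 0 and 1 and then 269, 204 and 267 counts, and Cxcl10 (an interferon-induced T cell attractant) rose by 2.85 ± 0.17. Of 14 CXC chemokine genes 10 rose (median 2.71) and Cxcl12, the stromal chemokine, fell by 0.47 ± 0.14, a fall that library totals alone reverse. Of 20 CC and CX3C chemokines 15 rose (median 2.89), with Ccl20 higher by 7.36 ± 0.38, Ccl7 by 6.86 ± 0.40 and Ccl9 by 5.15 ± 0.10.

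NF-kB is the family of transcription factors that switches on such chemokines, and it feeds back on itself through IkB proteins and A20. Rising genes with its site near their start are printed here. Nfkbia (IkBalpha) stood at 32.0, 21.6 and 27.8 CPM in controls and 77.8, 83.1 and 87.3 CPM at day 14 and rose by 1.61 ± 0.13. Tnfaip3 (A20) rose by 3.37 ± 0.09, Icam1, the leukocyte adhesion molecule, rose by 2.71 ± 0.12, Relb rose by 3.28 ± 0.20, and Bcl3 rose by 3.59 ± 0.16; 15 of 16 genes of the family and its feedback rose (median 2.76). The searched kappa B letters were GGGACTTTC, GGGAATTTC, GGAATTTCC and GGAAATTCC on both strands, which can overlap each other by all but 1 letter. They were found in 1.05% of the 12431 genes with a promoter window. They were also found in 48 of 2195 such genes called at least 2-fold higher (2.19%) and in 19 of 1710 called at least 2-fold lower (1.11%). Of the CXC chemokines with a window 5 of 10 held a match and of the NF-kB list 4 of 13, while none of 14 CC and CX3C chemokines did. The 110-base stretches are from RefSeq, build GRCm38.p6, with the matched letters in capitals. Cxcl1 is at chr5:90891135-90891244, Cxcl2 at chr5:90903769-90903878, Cxcl3 at chr5:90785991-90786100 and Icam1 at chr9:21015740-21015849, all on the plus strand. Cxcl10 is at chr5:92348980-92349089, Nfkbia at chr12:55492618-55492727 and Tnfaip3 at chr10:19015381-19015490, all on the minus strand.
Cxcl1: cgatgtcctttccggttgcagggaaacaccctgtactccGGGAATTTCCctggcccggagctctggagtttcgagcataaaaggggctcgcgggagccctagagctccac
Cxcl2: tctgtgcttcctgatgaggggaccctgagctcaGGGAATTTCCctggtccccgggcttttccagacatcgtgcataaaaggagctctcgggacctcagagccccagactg
Cxcl3: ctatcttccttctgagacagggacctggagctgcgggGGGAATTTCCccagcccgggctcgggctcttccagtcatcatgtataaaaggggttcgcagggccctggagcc
Cxcl10: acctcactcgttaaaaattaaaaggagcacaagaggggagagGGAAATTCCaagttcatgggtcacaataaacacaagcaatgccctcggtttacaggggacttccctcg
Nfkbia: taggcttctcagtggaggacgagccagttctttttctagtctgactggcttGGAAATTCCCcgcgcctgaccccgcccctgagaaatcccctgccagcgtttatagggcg
Tnfaip3: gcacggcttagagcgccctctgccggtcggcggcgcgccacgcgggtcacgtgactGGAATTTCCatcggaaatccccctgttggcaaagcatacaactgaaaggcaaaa
Icam1: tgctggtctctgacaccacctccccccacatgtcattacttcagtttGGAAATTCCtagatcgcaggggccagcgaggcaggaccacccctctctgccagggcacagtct
Cxcl1, Cxcl2 and Cxcl3 lie beside each other on chromosome 5 and share the same run of capitals ahead of a stretch that reads ataaaagg, so they are not independent examples.

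Cytokines and sensors rose as well. Of 20 interleukin and TNF superfamily genes tested 17 rose (median 2.25), and 13 more had too few counts. Il1f6 (IL-36alpha, an epithelial cytokine of the interleukin-1 family) was at 0 in all controls and at 688, 584 and 618 counts at day 14, at least 776-fold higher. Lif rose by 5.68 ± 0.24, Il1rn (the interleukin-1 receptor antagonist) rose by 6.15 ± 0.24, Il34 (a ligand of Csf1r) rose by 2.89 ± 0.14 and Csf1 rose by 2.68 ± 0.09. Il6 stayed rare, at 0, 1 and 0 counts in controls and 12, 10 and 12 counts at day 14, and Il15 fell by 1.35 ± 0.10. Tlr2 rose by 4.85 ± 0.12 and Nlrp3 rose by 2.85 ± 0.32 among 21 of 23 sensors that rose (median 2.38), while Nlrc4 fell by 1.10 ± 0.13. Interferon-induced genes rose in 30 of 32 cases but by less (median 1.50); Oas2 rose by 3.49 ± 0.15 and Irf7 rose by 2.23 ± 0.11.

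Complement changed by gene. C3, on which all 3 pathways converge, had 598, 754 and 499 counts in controls and 181821, 137054 and 119225 counts at day 14, from 0.0015% to 0.43% of counts. The classical starters C1s1 and C1ra rose by 2.37 ± 0.08 and 2.18 ± 0.06 and the receptors C3ar1 and C5ar1 by 4.08 ± 0.20 and 3.85 ± 0.24. Cfb (factor B, of the alternative loop) was already high in controls at 378, 506 and 405 CPM, stood at 465, 461 and 450.0 CPM at day 14, and was not called (without control replicate 2 it was called, at 0.21). Parts usually known from liver were lost: C8a (a terminal pore chain) went from 779, 603 and 617 counts to 2, 1 and 1 and fell by 9.27 ± 0.22, and Mbl2 (mannose-binding lectin) from 14, 20 and 17 counts to 0 in all day-14 libraries, at least 13.8-fold lower (the floor being 3 counts over the group). Cd55, which protects host cells from complement, fell by 1.97 ± 0.14.

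Interstitial matrix rose. Of 12 fibrillar and associated collagens 10 rose (median 2.01). Col1a1 stood at 22, 10.3 and 12.9 CPM in controls and 197, 194 and 232 CPM at day 14, and rose by 3.78 ± 0.25. Fn1 (fibronectin) rose by 3.71 ± 0.21, Tnc (tenascin C) rose by 3.56 ± 0.14, Postn (periostin) rose by 2.23 ± 0.26, and Ltbp2 (a microfibril protein) rose by 6.19 ± 0.24. Lox, which cross-links collagen, rose by 3.75 ± 0.17. Of 24 matricellular genes and proteoglycans 23 rose (median 2.23). Col17a1, a hemidesmosome collagen of stratified epithelia, went from 0.123, 0.0311 and 0.0636 CPM to 6.99, 5.81 and 6.55 CPM and rose by 6.41 ± 0.29.

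Enzymes that cut matrix, their inhibitors and the receptors for matrix rose too. Timp1 (a metalloproteinase inhibitor) stood at 0.368, 0.155 and 0.222 CPM in controls and 22.2, 23.6 and 27.6 CPM at day 14, and rose by 6.60 ± 0.20, but Timp3, which is abundant in normal kidney at 1575, 1844 and 1749 CPM, fell by 1.29 ± 0.07. Mmp7 (matrilysin) rose by 6.36 ± 0.40, Mmp12 (macrophage elastase) rose by 3.98 ± 0.12, Mmp2 rose by 3.57 ± 0.16 and Mmp14 rose by 3.37 ± 0.11, and 16 of 19 tested Mmp genes rose with none called lower (median 3.12). Of 17 integrins 16 rose (median 1.96), Itgb3 by 3.12 ± 0.14 among them. Lamb3, a laminin chain of hemidesmosomes, rose by 1.99 ± 0.25.

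Growth factor genes also changed in both directions. Of the TGF-beta family, the ligands Tgfb2 and Inhba (activin A) rose by 2.70 ± 0.17 and 3.74 ± 0.27, the BMP antagonist Grem1 rose by 4.65 ± 0.24, and Bmp7, the epithelial BMP of the kidney, stood at 38.6, 39.3 and 40.8 CPM in controls and 8.85, 9.91 and 10.1 CPM at day 14 and fell by 2.04 ± 0.07. Among ligands of the EGF receptor, Areg (amphiregulin) went from 1, 0 and 0 counts to 73, 62 and 48 counts, 225-fold higher (exact 95% counting interval 39.9 to 8949), Ereg (epiregulin) was at 0 in controls and at 28, 16 and 20 counts at day 14, at least 26.3-fold higher, while Egf fell as given above. Of the Wnt family, Wnt10a rose by 3.57 ± 0.22, Wnt7a rose by 3.82 ± 0.53 and Wnt4 rose by 1.72 ± 0.34. The Wnt inhibitor Wif1 went from 32, 35 and 30 counts to 0, at least 26.3-fold lower. Of 29 Wnt pathway genes tested 13 rose, 9 fell and 7 were not called (median 0.15). Lgr4, Lrp6 and Sfrp1 were among the falls, and with library totals alone 22 rose and 3 fell.

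Hormone and vasoactive genes changed in both directions. Ghr, the growth hormone receptor, stood at 895, 869 and 888 CPM in controls and 174, 164 and 135 CPM at day 14, and fell by 2.49 ± 0.09. Igfbp3 fell by 2.15 ± 0.06 and Igf1 rose by 1.24 ± 0.17. Ace (angiotensin-converting enzyme, of the brush border and endothelium) stood at 215, 227 and 188 CPM and then 28.8, 28.2 and 25.0 CPM and fell by 2.94 ± 0.09, and Corin, the protease that activates atrial natriuretic peptide, fell by 2.88 ± 0.20. Edn1 (endothelin-1) rose, from 1.26, 1.30 and 0.922 CPM to 25.6, 23.3 and 28.7 CPM, by 4.47 ± 0.14 (adjusted p = 5.19e-08). Ptgs2 (cyclooxygenase-2) rose by 2.08 ± 0.24 and Hpgds (a prostaglandin D synthase of leukocytes) rose by 3.06 ± 0.19. Cholesterol synthesis was lower, with Cyp51 at -2.89 ± 0.11, Idi1 at -2.57 ± 0.11 and Hmgcs1 at -1.90 ± 0.07. Hk2 (an inducible hexokinase) rose by 3.50 ± 0.33 and Pfkm fell by 1.41 ± 0.07.

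A set of genes in a repeated region of chromosome Y was higher at day 14. Of 30 genes of this chromosome tested, 16 were called higher and 4 lower. Rbmy (an RNA-binding protein of the male germ line, in a repeated region; GRCm39 chromosome Y, 2830680 to 2841854) had 3, 10 and 7 counts in controls and 1916, 1292 and 1708 at day 14, and rose by 7.46 ± 0.23 (adjusted p = 4.54e-08). The predicted genes around it did likewise. Gm10352 had 7, 6 and 5 and then 1505, 1176 and 1710 counts, Gm21677 had 0, 12 and 4 and then 1484, 1821 and 3260, and Gm21704 had 2, 13 and 3 and then 1558, 1388 and 3455. All 3 day-14 libraries were high and all controls near 0. Whether this difference followed the toxin or lay between the mice of the groups was not tested. These are near-identical copies, and how multi-mapping reads were handled is not given in the sources used here, so the value of any single copy is uncertain. Single-copy genes of the same chromosome did not rise: Kdm5d was at -0.03 ± 0.07 and not called, and Ddx3y fell by 0.64 ± 0.05, while with library totals alone 3 of the 4 single-copy genes rose.

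**Figure D5:**
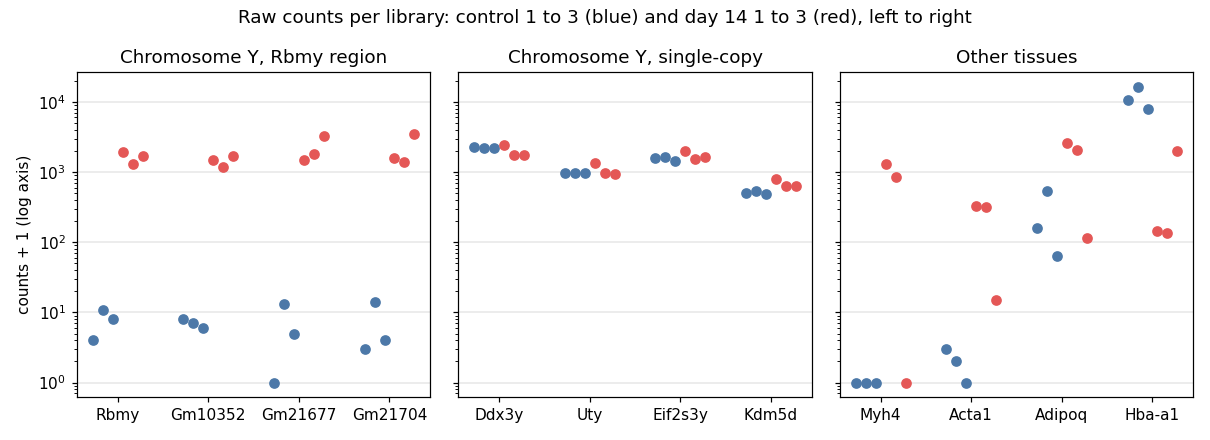
Raw counts plus 1 (log axis) are shown in each library, with control replicates 1 to 3 in blue and day-14 replicates 1 to 3 in red from left to right, for 4 genes of the Rbmy region, 4 single-copy genes of chromosome Y and 4 markers of muscle, fat and red cells. The Rbmy-region genes are high in all day-14 libraries, the single-copy genes differ little, and Myh4, Acta1 and Adipoq are higher in day-14 replicates 1 and 2 than in replicate 3.

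Markers of tissues outside the nephron split the day-14 libraries. Striated muscle markers took 0.000128, 0.000110 and 0.000106% of counts in controls and 0.00670, 0.00621 and 0.000202% at day 14, and the muscle gene Myh4 had 0, 0 and 0 counts in controls and 1290, 861 and 0 at day 14. Adipose markers took 0.0190, 0.0369 and 0.0102% of counts in controls and 0.127, 0.128 and 0.00973% at day 14, and of 10 tested 0 rose and 1 fell, while 8 rose without day-14 replicate 3 and 3 without control replicate 2. Adipoq (adiponectin) had 161, 528 and 62 and then 2564, 2048 and 115 counts. Urothelial markers took 0.000793, 0.00160 and 0.000950% of counts in controls and 0.00518, 0.00571 and 0.00148% at day 14. Day-14 replicate 3 was the low library for all 3 tissues, and control replicate 2 was the high control for fat. Red cell markers took 0.0770, 0.123 and 0.0656% of counts in controls and 0.00370, 0.00392 and 0.0206% at day 14, with day-14 replicate 3 above replicates 1 and 2, and all 6 fell (Hba-a1 at -4.33 ± 1.02). Of 11 adrenal markers 8 had too few counts to test, Cyp11b2 and Pnmt at 0 in every library, and the list took 0.00187, 0.00138 and 0.00162% of counts in controls and 0.000256, 0.000783 and 0.000912% at day 14. Adipoq was not called, at 2.15 ± 0.98, nor was Cfd (complement factor D, a product of fat), at 2.34 ± 1.04; without day-14 replicate 3 they were called, Adipoq at 2.69 and Cfd at 2.89. The part of these tissues in the rise of Hp and of the keratins was not tested. Without day-14 replicate 3, 6580 genes were higher and 6408 lower, and without replicates 1 or 2 in turn the numbers were 6417 and 6323, and 6167 and 6065.

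A few genes were absent from 1 group. Among genes with at least 100 counts in the other group, those at 0 in all controls and present in all 3 day-14 libraries were Il1f6, D630011A20Rik, Xirp2, Arhgap36, Popdc3, Mmp27 and Mucl1. Xirp2 had 167, 113 and 67 counts, fewest in day-14 replicate 3, the low library for muscle markers. The part of muscle in its counts was not tested. Arhgap36, a regulator of protein kinase A and Hedgehog signalling, had 70, 55 and 66 counts, at least 78.4-fold higher. In the other direction Hrg (histidine-rich glycoprotein, a plasma protein) had 106, 200 and 77 counts in controls and 0 at day 14, at least 104-fold lower. Klk1b14-ps and Klk1b15-ps, pseudogenes of the kallikrein cluster, and Gm28116 were found in single control mice or nearly so, and their absence at day 14 is therefore no difference between groups.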

How the data were processed

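The authors deposited 1 table of raw read counts per gene; per the submitters' processing notes, reads were trimmed with fastp 0.20.0 and counted with featureCounts against GRCm39. How reads were aligned, which annotation was used and how strand and multi-mapping reads were handled is not given in the sources used here, so overlapping, antisense and duplicated genes are uncertain. Per the labels' protocols, kidney RNA was treated with DNase on the column, selected by poly(A), made into libraries with an MGI kit and sequenced in pairs on a NovaSeq instrument.

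The 6 columns of the 2 groups were used, and their columns match the titles of single samples. Genes with no symbol (2803, with 1.90% of counts) were kept in library sizes and tests. Genes with low counts were removed by filterByExpr, libraries were scaled by TMM, and groups were compared by the quasi-likelihood test of edgeR 4.0.16 (R 4.3.3) with group as the only term. P-values were adjusted by Benjamini-Hochberg over the 19320 genes tested, and genes were called at an adjusted p under 0.05. Log2 fold changes are those of the fit; the standard error is their size over the root of the F statistic. For genes with at most 3 counts in a group, counts are given with a bound (a floor of 3 counts over the group) or a ratio with an exact 95% interval. These bounds and intervals cover counting error only, since reads carried no molecular identifiers. Tested on simulated counts of 17485 genes for this comparison, the procedure called 69% of genes changed 2-fold and 93% of those changed 4-fold, with 13 unchanged genes called. In the simulation only 200 genes were changed, as many up as down, and all levels came from the controls. In the data 69% of the genes tested were called, so the simulation cannot show how the TMM scaling behaves here. No 2 libraries were copies: the closest, day-14 replicates 1 and 2, had a chi-square of 4.90 per degree of freedom.

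Gene lists and members were chosen with earlier results of these data known, so lists are described by counts and medians beside the same for all genes, with no set test. Named genes were taken from the anchor genes of each list, the 3 members of a list with the smallest adjusted p, up to 4 called members against the list's median, the 12 largest rises and 12 largest falls whose mean log2 CPM reached 1 and whose groups did not overlap, and the 8 genes whose share of counts rose or fell most. Other genes were named for their role after their values were seen, and some genes of the lists are not reported here by name. Where the table holds a list symbol more than once (Aldoa, Ddit3 and Nrg1), the entry with the most counts was used. Promoter windows come from the RefSeq table of GRCm38.p6, matched by symbol to 12431 of the tested genes. Some genes had more than 1 window, and a gene was counted once if any of its windows held a match. The letters TTCCNGGAA (STAT) and GTTAATNAT (HNF1) were searched as well. STAT letters were held by 1.17% of genes called at least 8-fold higher, 0.870% of those 8-fold lower and 1.57% of all with a window. For HNF1 letters the shares were 0.939%, 3.04% and 0.732%. In the acute phase list 2 of 15 genes held STAT letters. Gene coordinates are those of the deposited table.

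Alternatives were median-of-ratios, upper-quartile and total scaling, DESeq2 1.42.0, limma-voom (limma 3.58.1), no filter, a filter of 1 CPM in 3 libraries, a minimum log2 fold change of 1, a replicate block, a fit of all 12 libraries, and each library left out in turn. Totals without mitochondrial genes were added after the data were seen.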

Additional observations from a re-analysis of the deposited data

How the results depend on the processing

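The 6779 higher and 6560 lower genes stayed within 1.5 times those counts under median-of-ratios and upper-quartile factors, DESeq2, limma-voom, both filters and the fit of all 12 libraries. The share of calls that were higher, 50.8%, was 49.9% with median-of-ratios factors, 57.2% with upper-quartile factors (which add 0.10 to the median of all genes), 49.5% with DESeq2 and 52.1% in the fit of all 12 libraries. With library totals alone 13802 genes were higher and 2532 lower (84.5%), and with totals that leave out mitochondrial genes, a setting chosen after seeing the data, 11823 and 3362 (77.9%). Against a minimum log2 fold change of 1, 2433 were higher and 2029 lower (54.5%). Leaving out 1 library at a time gave 6167 to 6580 higher genes, 6065 to 6634 lower genes and a share of 49.1% to 50.7%. With library totals alone Cxcl12 was at 0.28, Ddx3y at 0.12, Kdm5d at 0.73, Psmb5 at 0.31, Psmb6 at 0.32, Psmb7 at 0.042, Ccng1 at 0.0063, Mdm2 at 0.62 and Psat1 at 0.38; without mitochondrial genes in the totals Cxcl12 was at 0.046, Kdm5d at 0.49, Psmb5 at 0.070, Psmb6 at 0.082, Mdm2 at 0.38 and Psat1 at 0.15, and with upper-quartile factors Kdm5d was at 0.072. Of genes not called, the sign turned with 1 library left out for Cfb (from -0.011 to 0.21) and Col4a5 (from -0.015 to 0.071). Of 264 genes named and tested, 252 were tested in every setting, and 214 of these kept their direction and their side of the threshold in all. Outside library totals and the minimum fold, 4 lost their call: Hp and Acta1 with limma-voom, Hp, Pvalb and Mdm2 in the fit of all 12 libraries, and Mdm2 also with upper-quartile factors, no filter, the replicate block and without day-14 replicate 2 or 3. Replicate numbers were used as a replicate block, which gave 6638 higher and 6383 lower genes (51.0%). These data do not settle whether the numbers pair the mice. Deviations of same-numbered libraries correlated at 0.03, 0.07 and 0.09, and those of differently numbered libraries at -0.08 to 0.04. Day-14 replicates 2 and 3 correlated best with the control of the same number. Day-14 replicate 1 correlated best with control replicate 2, at 0.04. At these depths, genes under a few counts per library could not be compared, and a fold against a group at 0 is a bound.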
